A study of Mus musculus with 18 samples.

Results

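The 10 genes described here write, remove or read DNA methylation, and the measurement is the methylation of the genes themselves in mouse heart after myocardial infarction (MI). The genes were listed by name, with earlier results of these data known: Dnmt1, Uhrf1, Dnmt3a, Dnmt3b, Dnmt3l, Tet1, Tet2, Tet3, Tdg and Mbd2. They are 10 of the 21883 protein-coding genes of the gene table, and each was taken with 2000 bases on both sides. Of the 862255 peaks deposited for the 18 libraries, 329 lay in these spans. Merged across libraries where they overlapped by at least 1 base, the peaks formed 152196 regions, of which 60 lay in the 10 spans.

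MI is the death of heart muscle after its blood supply is cut. All 18 mice were male, of strain C57BL/6JR and 12 weeks old. In 5 groups of 3 mice the left anterior descending coronary artery was tied, and the heart was taken after 10 min or after 1, 6, 24 or 72 h. The sham group of 3 mice went through the operation with a suture passed and left untied, and is labelled as 0 h. All MI mice were anaesthetized with sodium pentobarbital, at a dose that the sample labels write differently for most MI samples, and isoflurane was given before the mice were killed. No genetic change is named for any group. The tissue is labelled myocardial and the cell type cardiomyocytes. No step that isolates cells is described, so each library may hold DNA of several cell types, and a change in the share of a cell type cannot be told apart from a change of methylation within cells. Methylated DNA immunoprecipitation sequencing (MeDIP-seq) pulls down sheared DNA with an antibody against 5-methylcytosine. It shows where methylated fragments pile up and gives no percentage of methylated cytosines.

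In mammals, DNA methylation sits mostly on the cytosine of CpG dinucleotides. DNMT1, brought to newly copied DNA by UHRF1, keeps existing marks through cell division, and DNMT3A and DNMT3B set new ones, helped in germ cells by the inactive partner DNMT3L. TET1, TET2 and TET3 oxidize methylcytosine, and the glycosylase TDG cuts out the further oxidized bases so that repair restores an unmethylated cytosine. MBD2 binds methylated CpGs and brings repressor complexes. CpG-dense promoters of active genes are as a rule unmethylated, while gene bodies are often methylated.

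The peak lists held 34255 to 60653 peaks. The longest lists were those of sham replicate 2 and of MI 72 h replicates 1 and 2, with 60130, 58992 and 60653 peaks. No read counts were used here, so the depth behind a peak is unknown, and absence of a peak means only that none passed the authors' threshold. Over 5 fibroblast and 4 endothelial marker genes the share of joint gene span under peaks was 2.02% to 4.65% and 2.42% to 4.77% across libraries. In the fibroblast genes it was 2.34% to 2.92% in sham and 3.04% to 4.27% at 24 h, above all of sham, and the other groups overlapped sham. With an equal number of peaks per library it was 1.58% to 2.92% in sham and 2.43% to 3.79% at 24 h, which overlap. Over 8 leukocyte genes, of which Cd68, Lyz2, S100a8 and S100a9 had no peak in any library, it was 0%, 1.198% and 0.217% in sham and 0.229% to 0.490% at 10 min. In the same genes it was 1.35% to 1.82% at 1 h, 0% to 0.422% at 6 h, 0.233% to 1.37% at 24 h and 1.12% to 1.47% at 72 h, so the 1 h libraries lay above all of sham and the 6 h libraries did not. With an equal number of peaks per library, taken by score, 1 h had 0.367% to 0.713% and sham 0% to 0.704%, which overlap. Over 9 cardiomyocyte genes the share with all peaks was 0.640% to 1.27% in sham, 0.519% to 1.54% from 10 min to 24 h, and 0.994%, 2.66% and 2.02% at 72 h. Their part in the differences of the 10 genes was not tested. These marker values describe methylated DNA, not RNA, and they do not name the cells present.

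Peaks touched the promoters of these genes about as often as those of other protein-coding genes. RefSeq start sites of build GRCm38.p6 gave 16 promoter windows for 9 genes, each reaching from 250 bases before the start site to 50 bases after it. Only 1 of the 16 windows touched a peak in any of the 18 libraries, the Dnmt3l window at start site 78042287 on chromosome 10, and it did so in 1 library, MI 1 h replicate 1. That is 6.25% of the windows, against 6.15% of the 21262 windows of all protein-coding genes. The share thus rests on 1 window. Its peak had a score of 52.7 and also overlaps the protein-coding gene Aire, so it cannot be assigned to Dnmt3l only. No window was found for Mbd2. At least 15 CpGs were held by 10 of the windows, from 8 genes, and 0 of these 10 touched a peak. Among all 11378 windows of the table with at least 15 CpGs, 2.21% touched a peak in at least 1 library, against 18.5% of the 8977 windows with 5 to 14 CpGs and 8.19% of the 12496 windows with 4 or fewer. The 5 sequences that follow are shown because they span that range, from the CpG-densest promoter to the only one touched by a peak. Each is the 250 bases before a start site, read 5′ to 3′ on the gene's strand from RefSeq (GRCm38.p6), with every CpG in capitals.
Tet2, chr3:133544391-133544640, minus strand: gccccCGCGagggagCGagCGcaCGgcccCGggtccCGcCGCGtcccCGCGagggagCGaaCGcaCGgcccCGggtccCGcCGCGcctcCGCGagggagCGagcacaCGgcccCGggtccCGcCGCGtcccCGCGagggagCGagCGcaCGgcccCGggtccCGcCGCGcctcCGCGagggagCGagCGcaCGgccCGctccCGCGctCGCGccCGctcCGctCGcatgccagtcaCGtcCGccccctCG
Dnmt1, chr9:20952624-20952873, minus strand: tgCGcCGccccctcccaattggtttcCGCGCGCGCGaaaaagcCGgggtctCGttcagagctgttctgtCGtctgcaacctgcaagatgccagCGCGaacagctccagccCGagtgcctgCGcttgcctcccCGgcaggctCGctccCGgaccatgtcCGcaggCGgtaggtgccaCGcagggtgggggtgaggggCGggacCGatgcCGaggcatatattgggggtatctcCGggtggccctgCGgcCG
Tet1, chr10:62887325-62887574, minus strand: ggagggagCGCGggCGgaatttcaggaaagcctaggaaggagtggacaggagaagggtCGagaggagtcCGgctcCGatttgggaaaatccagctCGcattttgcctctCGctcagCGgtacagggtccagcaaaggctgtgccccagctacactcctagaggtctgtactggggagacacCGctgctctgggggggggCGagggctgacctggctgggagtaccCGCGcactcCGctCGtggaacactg
Dnmt3l, chr10:78042037-78042286, plus strand: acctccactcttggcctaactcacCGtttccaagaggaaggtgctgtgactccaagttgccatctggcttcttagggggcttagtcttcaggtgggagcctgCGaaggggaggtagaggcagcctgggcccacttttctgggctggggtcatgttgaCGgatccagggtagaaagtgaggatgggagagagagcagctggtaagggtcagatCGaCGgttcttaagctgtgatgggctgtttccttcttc
Dnmt1, chr9:20959889-20960138, minus strand: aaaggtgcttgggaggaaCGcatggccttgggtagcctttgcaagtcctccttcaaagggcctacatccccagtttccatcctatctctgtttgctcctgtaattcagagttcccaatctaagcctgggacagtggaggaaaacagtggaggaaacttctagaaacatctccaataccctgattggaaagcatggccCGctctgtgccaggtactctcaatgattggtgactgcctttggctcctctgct

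The Tet2 stretch is the CpG-densest of the set. It holds 51 CpGs, and its full window holds 57, with a ratio of observed to expected CpGs of 1.17 and a GC content of 81.3%. Part of it is repeated: the longest exact repeat within the window is 43 bases, against 7 to 13 bases in the other 15 windows. Its nearest peak region in any library lay 10149 bases from the start site. The inner Dnmt1 start site has 26 CpGs in the printed stretch and its nearest region 5589 bases away. Tet1 has 15 CpGs in the printed stretch and its nearest region 6995 bases away. The Dnmt3l and the outer Dnmt1 stretches hold 5 and 2 CpGs. A region with a peak in 1 library lay 35 bases from that Dnmt3l start site. The merged region nearest the outer Dnmt1 start site, with a peak in 7 libraries, lay 400 bases from it. Its near edge was set by MI 24 h replicate 2 alone, and the peaks of the other libraries began further away, at 20960548 to 20960614.

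**Figure D1:**
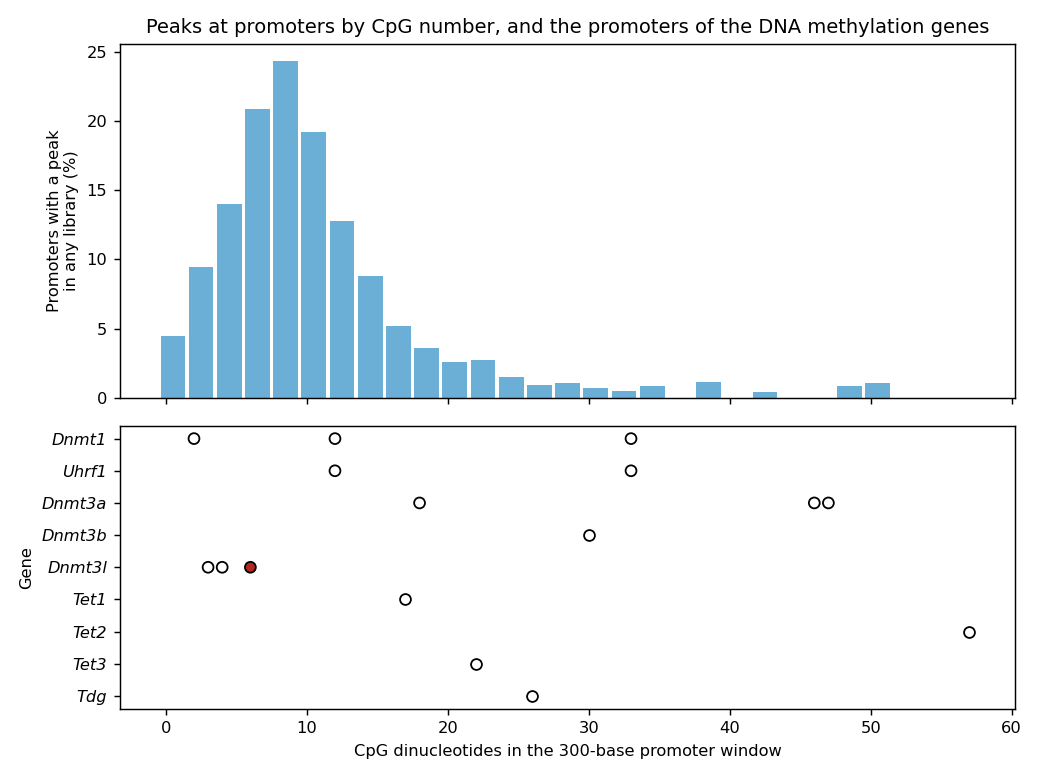
Upper panel: percentage of RefSeq promoter windows (300 bases) that touched a peak in any of 18 libraries, in bins of 2 CpGs, bins of fewer than 20 windows not drawn (vertical axis, percent; horizontal axis, CpGs in the window). Lower panel: 1 circle per promoter window of each gene at its CpG number; the filled circle, of Dnmt3l, is the only one of the 16 windows that touched a peak.

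Within the gene bodies all 10 genes carried peaks, at very different levels. The measure was the percentage of the gene span, flanks included, that lay under peaks of a library. Tet1 had the highest mean, 5.15% ± 1.29 (SD, n = 18 libraries), percentile 84.2 among all protein-coding genes. Dnmt3l followed with 4.01% ± 3.55, Tet2 with 3.57% ± 1.19, Mbd2 with 3.27% ± 1.36 and Tdg with 3.21% ± 3.03. Dnmt1 had 2.66% ± 2.14, Dnmt3b 2.47% ± 1.62, Dnmt3a 2.12% ± 1.01 and Tet3 1.68% ± 1.01. Uhrf1 had the lowest, 0.818% ± 1.43, percentile 38.8. Neighbours in this order did not differ beyond their SDs. Positions are in mm10, the build named in the submitters' processing notes, and gene spans are those of GRCm38.p6; exons and introns were not analysed here.

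Tet1, Tet2, Dnmt3a and Mbd2 had a peak in all 18 libraries. Tet3 had a peak in 16, Dnmt3b in 15, Dnmt1 in 14, Dnmt3l in 12, Tdg in 11 and Uhrf1 in 5. Most of their regions were found in few mice. Of the 60 regions, 16 (26.7%) were found in 1 library, against 29.2% of all merged regions, and 10 (16.7%) were found in 12 to 17 libraries, against 12.1%. A single region was found in all 18 libraries (1.67%, against 5.09% of all merged regions). The 9 genes with a known strand held 51 regions within the gene, and 20 of these (39.2%) lay in the last of 4 equal parts of the gene counted from its 5′ end. The share over all protein-coding genes was 29.5%. The median peak score of the 10 genes was 66.5, against 72.1 over all peaks, and 51 of their 329 peaks (15.5%) scored at least 100, against 21.7% of all peaks. Their share was the lower one in 15 of 18 libraries and the higher one in sham replicates 1 and 3 and MI 6 h replicate 1; the difference was not tested. Scores were set by the authors, have a floor of 50 and serve here only to describe and filter peaks.

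**Figure D2:**
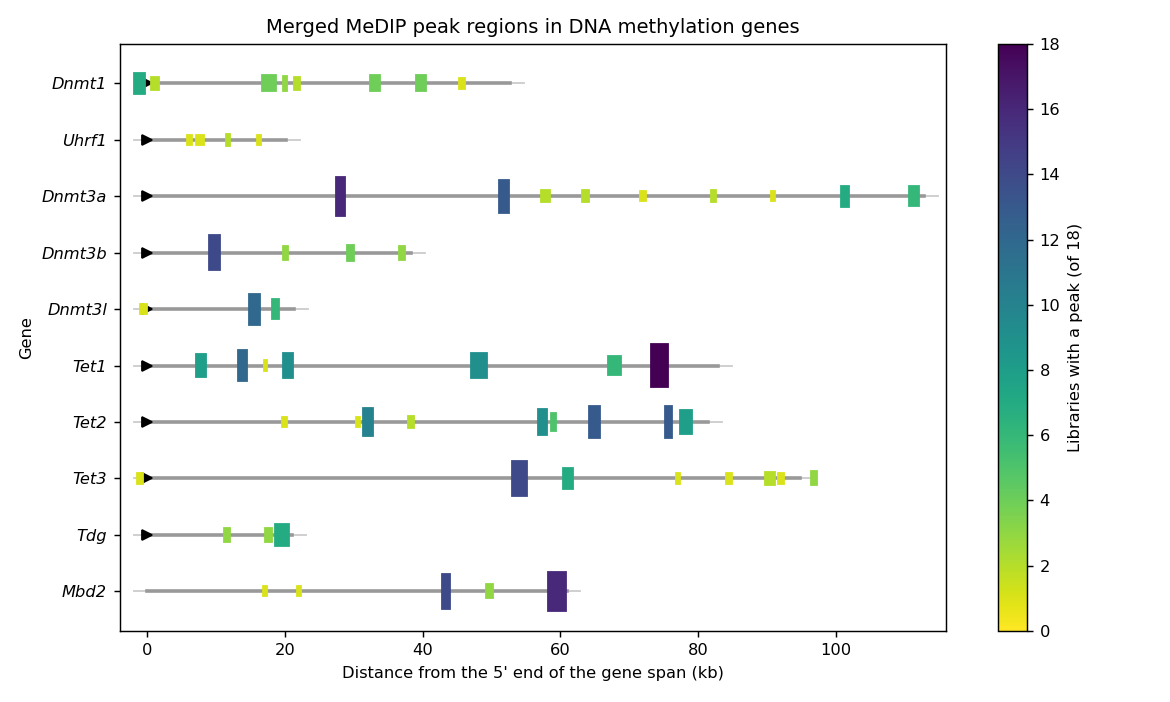
Merged peak regions along the 10 genes, drawn by distance from the 5′ end of the gene (kb; Mbd2, for which no strand was used, from its lower coordinate); arrowheads give the 5′ ends, and box colour and height give the number of libraries with a peak, of 18. The tallest box, in Tet1, lies at 74.4 kb and is present in 18 libraries. Recurrent regions also lie nearer a 5′ end, as that of Dnmt3b at 9.74 kb, 25.4% of the gene's length, in 14 libraries.

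Peak coverage of a gene was compared between groups with limma, over 14578 protein-coding genes with a peak in at least 3 libraries, with Benjamini-Hochberg adjustment over all of them. None of the 10 genes passed an adjusted p of 0.05 in the test over the 6 groups, where 0.213% of all genes passed. None passed in a comparison with sham, where 0.0412% of all genes passed for the 10 min group and as many for the 6 h group, 0.048% for each of the groups of 1 h and 24 h, 0.103% for the 72 h group and 0.0549% for all MI libraries together. A slope on the logarithm of hours after ligation, fitted over the 15 MI libraries, passed for 0 of the 10 genes and for 0% of 14159 genes. At an unadjusted p under 0.05 the slope passed for 0 of the 10 genes and for 8.93% of all genes, and the test over 6 groups for 0 of the 10 genes and 6.5% of all. The comparisons share the 3 sham libraries, so their values are not independent of each other. Whether a library had any peak in a gene was tested by exact enumeration of the group labels for the 5 members with a peak in 3 to 15 libraries, and 0 of these 5 passed, as did 0% of 8245 genes. Unadjusted, 0 of the 5 were under 0.05, against 2.17% of all genes. The lowest exact p among the 5 was 0.175, for Dnmt3l and Tdg, with an adjusted p of 1.

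**Figure D3:**
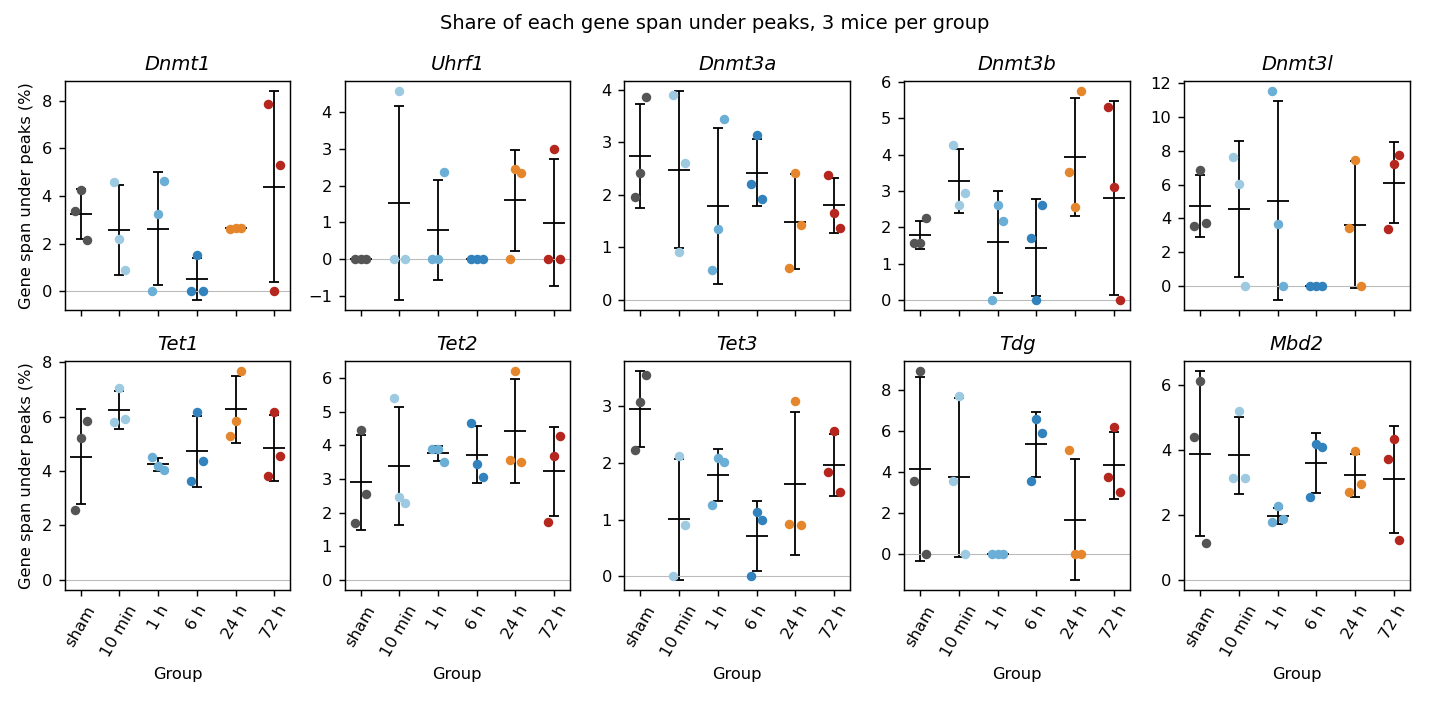
Percentage of each gene span under peaks (vertical axis, scaled separately for each gene) in the 6 groups; points are the 3 mice, the horizontal bar is the mean and the whiskers 1 SD. Tet3 is highest in sham, Dnmt3l has no peak in the 3 libraries at 6 h and Tdg none in the 3 at 1 h.

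Dnmt1 (chr9:20907206-20959888) is the maintenance methyltransferase. It had no region in more than 7 libraries. Its coverage in sham was 3.36%, 4.25% and 2.15%, and at 6 h it was 0%, 1.54% and 0%, so these 2 groups did not overlap. Of the 10 genes, Dnmt1, Dnmt3l and Tet3 lay below sham in this way at 6 h, as did 5.4% of all 14578 genes. With an equal number of peaks per library, taken by score, Dnmt1 had no peak in 1 sham library and the groups touched at 0%. The difference of -2.74 points (SE 1.67) had an unadjusted p of 0.125 and an adjusted p of 0.907. At 72 h the 3 mice had 7.86%, 0% and 5.29%, the widest spread of any Dnmt1 group. The region found in most libraries was chr9:20960288-20961788, in the upstream flank, with a peak in 7 libraries. It was present in all 3 mice at 24 h, with scores of 59.6, 68.0 and 50.1, in 2 mice at 10 min, in 1 sham mouse and in 1 mouse at 1 h, and in none at 6 h or 72 h. The highest Dnmt1 score, 84.5, was that of MI 1 h replicate 2 at chr9:20939616-20940189, a region found in 3 libraries.

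Uhrf1 (chr17:56303337-56323486) encodes the protein that recruits DNMT1 to hemimethylated DNA. It was the gene with the fewest peaks, 5 in all, each in another library. No peak was found in the 3 sham libraries or in the 3 libraries at 6 h. A peak was found in 1 library each of the 10 min (4.57% of the span), 1 h (2.36%) and 72 h groups (2.99%), and in 2 libraries of the 24 h group (2.45% and 2.35%). The 2 peaks at 24 h fell in the same region, chr17:56314766-56315361, with scores of 77.5 and 52.3. The other 3 regions were each seen once. For the 24 h group the adjusted p against sham was 0.986.

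Dnmt3a (chr12:3801559-3914443) is a methyltransferase that sets new marks, and its gene is the longest of the 10. A region 28.1 kb from its 5′ end, chr12:3828974-3830311, had a peak in 16 libraries. Its scores were 106, 91.4 and 100.8 in sham, and 98.4, 148 and 82.2 at 72 h, while the 5 scores at 6 h and 24 h were 52.4 to 71.6 and 1 mouse at 24 h had no peak. A second recurrent region, chr12:3852701-3854141, was found in 13 libraries. The region chr12:3902302-3903542, 101.4 kb from the 5′ end, was called lost in the 24 h and 72 h groups, meaning a peak in 3 of 3 sham libraries and in 0 of 3 of that group. Its scores were 76.2, 91.0 and 55.9 in sham, with 55.3 in 1 mouse of the 10 min group. In the 1 h group 2 mice had 54.3 and 53.5, and 1 mouse of the 6 h group had 64.3. It is 1 of the 60 member regions lost at 24 h, where 0.524% of all merged regions were lost, and the 1 lost at 72 h, where the share was 0.397%. The exact p over the 6 groups was 0.175. With an equal number of peaks per library 2 of the 3 sham libraries kept the peak, which ends both calls. The neighbouring region at the 3′ end, chr12:3912148-3913715, was found in 6 libraries, 1 sham library and 5 libraries between 10 min and 6 h, and in none at 24 h or 72 h. For the whole gene the means were 2.74% ± 0.989 in sham, 1.49% ± 0.902 in the 24 h group and 1.801% ± 0.525 in the 72 h group (n = 3 each), and the adjusted p values in limma were 0.986 and 0.933. With an equal number of peaks per library, coverage of the gene was 1.53% to 3.24% in sham. It was 0% to 1.31% at 24 h and 0.777% to 1.36% at 72 h. Both groups then lay below all of sham, as did 3.94% (24 h) and 3.56% (72 h) of all genes.

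Dnmt3b (chr2:153649411-153687730), the other methyltransferase that sets new marks, had 1 recurrent region and 3 sparse ones. The recurrent region, chr2:153658328-153659970, lay 9.74 kb from the 5′ end and had a peak in 14 libraries. Its scores in sham were 125, 103 and 128. The 10 min mice had 67.3 and 58.0, the 1 h mice 93.4 and 61.8 and the 6 h mice 80.6 and 77.0. Later scores were 69.1, 99.6 and 117 (24 h group) and 109 and 73.7 (72 h group). In each MI group but that of 24 h, 1 mouse had no peak. All 3 sham scores were above 100, as were 2 of the 11 MI scores, at 24 h replicate 3 and 72 h replicate 1. When peaks under a score of 100 were left out, this region was thus called lost in the groups of 10 min, 1 h and 6 h and over all MI libraries together, where 0.166%, 0.133%, 0.177% and 0.0723% of all merged regions were lost.

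A second Dnmt3b region, chr2:153678421-153679399, 29.5 kb from the 5′ end, was called gained at 24 h. Its scores in the 24 h mice were 72.8, 52.0 and 61.5, and 72 h replicate 1 had 53.2. None of the other 14 libraries had a peak there. The exact p over the 6 groups was 0.0294 before adjustment and 1 after it. At the level of the gene, coverage was 1.79% ± 0.390 in sham and 3.93% ± 1.63 at 24 h (n = 3 each), and the difference of 2.14 points (SE 1.24) had an adjusted p of 0.986. The 3 mice at 24 h had 3.51%, 2.55% and 5.73%, all above the highest sham value of 2.24%, as 2.62% of all genes were above sham at 24 h. With an equal number of peaks the lowest 24 h value was 1.19% and the groups overlapped. The 10 min mice had 4.27%, 2.62% and 2.95%, also above all of sham, as 2.25% of all genes were. With an equal number of peaks, where 3.41% of all genes lay above sham, the 10 min mice stayed so, the lowest at 2.62%. Their difference from sham of 1.48 points (SE 1.24) had an adjusted p of 0.992. With only peaks of at least 100, the mean of all MI libraries differed from sham by -1.53 points, the opposite sign to the 0.815 points with all peaks, with an adjusted p of 0.409 in limma.

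Dnmt3l (chr10:78042287-78063622), the inactive partner of DNMT3A and DNMT3B, is known for its role in germ cells. Its main region, chr10:78057099-78058627, had a peak in 12 libraries and was called lost at 6 h. Scores were 63.7, 82.3 and 83.4 in sham, the highest group. The 10 min mice with a peak had 52.2 and 57.3, the 1 h mice 57.7 and 62.0 and the 24 h mice 72.9 and 60.0. All 3 mice of the 72 h group had a peak, with 66.7, 68.3 and 60.6. No library at 6 h had a peak anywhere in the gene, whose coverage there was 0% against 3.58%, 6.87% and 3.76% in sham. The difference of -4.74 points (SE 2.72) had an unadjusted p of 0.105 and an adjusted p of 0.898. The region is 1 of 60 member regions lost at 6 h, where 0.706% of all merged regions were lost. Peak lists at 6 h held 43071, 50535 and 34255 peaks, and the last is the shortest of the series. With the same number of highest-scoring peaks taken from each library, 34255, the region was called lost at 6 h and also at 72 h, where no library then had a Dnmt3l peak. Leukocyte marker genes had 0% to 0.422% of their span under peaks in the 6 h libraries, a range that sham replicates 1 and 3 share. A further region, chr10:78060336-78061414, was found in 6 libraries with scores of 50.1 to 64.1.

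Tet1 (chr10:62804570-62887469), an oxidase of methylcytosine, held the only region of the 10 genes that was present in every library. It is chr10:62811799-62814377, 2579 bases long, 74.4 kb from the 5′ end at 89.7% of the gene's length. Its highest score in each library was 123, 292 and 177 in sham. The 10 min mice had 196, 155 and 152 and the 1 h mice 180, 176 and 213. Later groups had 141, 194 and 114 (6 h), then 169, 184 and 212 (24 h), and 197, 193 and 139 (72 h). The highest of these came from a sham mouse, as did the lowest but 1, and each MI group lay within the sham range except for 1 mouse at 6 h with 114. The median of the 18 was 178, and the median over libraries of the peak's score percentile within its own list was 97.6.

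The other Tet1 regions were weaker and less regular. Those in 6 or more libraries were chr10:62872972-62874367 in 12, chr10:62866249-62867804 and chr10:62838083-62840391 in 9 each, chr10:62878979-62880329 in 8 and chr10:62818695-62820525 in 6. The region at 62866249 had no peak at 1 h or 6 h and was seen in 2 or 3 mice of each other group. The 4 regions nearest the 5′ end also overlap the long noncoding gene Gm51805, so a peak there cannot be assigned to 1 of the 2 genes. Over the whole gene the 3 mice of the 10 min group had 5.80%, 7.06% and 5.90%. The 24 h mice had 5.30%, 5.83% and 7.68%, and the sham mice 2.57%, 5.20% and 5.84%, so both groups overlapped sham. The 10 min and 24 h means were above sham by 1.72 and 1.73 points (SE 0.967 each), with adjusted p values of 0.992 and 0.986.

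Tet2 (chr3:133463677-133545136), a further oxidase of the same family, carried 9 regions, all within the gene. Chr3:133468856-133469955 and chr3:133479359-133480948 were found in 13 libraries each, chr3:133512385-133513810 in 10, chr3:133487131-133488419 in 9 and chr3:133465976-133467771 in 8. The last of these was seen in 0 of 3 sham libraries, in 2 of 3 libraries of every MI group but that of 24 h, and there in none. A short region of 826 bases, chr3:133485735-133486560, was called gained at 24 h. Its scores were 70.1, 52.1 and 66.5 in the 24 h mice. In the 72 h group, replicates 2 and 3 had 117.5 and 51.8. The other 13 libraries, among them all of sham and of the groups up to 6 h, had no peak. The exact p over the 6 groups was 0.0105, the lowest of the member regions, and 1 after adjustment over 72974 regions. With the Dnmt3b region it makes 2 of 60 member regions gained at 24 h, where 0.393% of all merged regions were gained. Both calls rest on scores between 52.0 and 72.8, and with an equal number of peaks per library 2 of the 3 mice of the 24 h group kept a peak in each. Gene coverage at 24 h was 4.42% ± 1.54 against 2.90% ± 1.42 in sham (n = 3 each), with an adjusted p of 0.986.

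Tet3 (chr6:83362373-83457208), the third oxidase, had the lowest unadjusted p values of the 10 genes. Coverage in sham was 2.23%, 3.08% and 3.54%. The 10 min mice had 0%, 2.13% and 0.899%, the 1 h mice 1.26%, 2.08% and 2.02%, and the 6 h mice 0%, 1.13% and 0.991%. Later it was 0.921%, 3.09% and 0.899% (24 h) and 1.84%, 2.56% and 1.49% (72 h). Every mouse of the 3 earliest groups lay below every sham mouse, as did 5.25% of all genes at 10 min, 7.08% at 1 h and the 5.4% given above at 6 h, and the 2 later groups overlapped sham. With an equal number of peaks per library the lowest sham value was 1.06% and the highest at 10 min, 1 h and 6 h were 2.13%, 2.02% and 1.13%, so all 3 groups overlapped sham. Against the sham mean of 2.95%, the difference was -1.94 points at 10 min (SE 0.720, unadjusted p 0.0180, adjusted p 0.920) and -2.24 points at 6 h (SE 0.720, unadjusted p 0.00793, adjusted p 0.789). All MI libraries together differed by -1.53 points (SE 0.558, unadjusted p 0.0164, adjusted p 0.787). At an unadjusted p under 0.05, Tet3 was the 1 of the 10 genes in each of these 3 comparisons, where 5.12%, 5.89% and 4.96% of all genes were under it. In the remaining comparisons 0 of the 10 genes were, against 5% of all genes (1 h), 4.93% (24 h) and 6.85% (72 h). A share of 1 gene in 10 is close to these backgrounds. The sign was negative in 28 of 28 settings for each of the 3 comparisons. These settings reuse the same libraries, so the count is no independent support.

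Behind the Tet3 values stood 1 recurrent region and several rare ones. The region chr6:83402086-83404265, 54.0 kb from the 5′ end, had a peak in 14 libraries. Its scores were 102, 59.7 and 119 in sham, and it was missing in 2 of 3 mice at 10 min and in 2 of 3 at 6 h (exact p 0.0735, unadjusted). At 72 h the scores were 63.7, 112 and 52.7. The region chr6:83395306-83396792 was found in 7 libraries, 3 of them at 1 h.

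Tdg (chr10:82629814-82650799), the glycosylase that completes active demethylation, had peaks in 11 libraries. None of the 3 libraries at 1 h had a peak, and all 3 did in the 6 h and 72 h groups. Coverage was 3.55%, 8.89% and 0% in sham and 3.55%, 6.59% and 5.88% at 6 h. Sham thus spans from no peak to the highest value of the gene, and no group stands clear of it. Against sham the 1 h mean differed by -4.15 points (SE 2.22), with an unadjusted p of 0.0841 and an adjusted p of 0.967. The 3 libraries at 1 h had 1.35% to 1.82% of the leukocyte marker span under peaks, above all of sham. With an equal number of peaks per library they had 0.367% to 0.713% and overlapped sham, at 0% to 0.704%. The region found in most libraries, chr10:82648380-82650451 in 7, lies at the 3′ end and also overlaps Glt8d2. Its highest score was 98.1, in MI 6 h replicate 2.

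Mbd2 (chr18:70568225-70629134), the reader among the 10, had 2 of the most regular regions. Chr18:70626378-70629062 was found in 16 libraries, absent only in sham replicate 3 and 72 h replicate 3, with a highest score of 126 in MI 10 min replicate 1. Chr18:70611049-70612226 was found in 14 libraries: in all 3 mice of every MI group but 1, in 2 sham mice with scores of 73.3 and 57.3, and in 0 of 3 at 1 h. Its exact p over the 6 groups was 0.0294 before adjustment and 1 after. At the level of the gene the 1 h mice had 1.78%, 2.26% and 1.87%, and the sham mice 4.42%, 6.13% and 1.13%. The mean at 1 h was the lowest of the 6 groups, 1.97% ± 0.255 (n = 3), and its difference from sham of -1.92 points (SE 1.14) had an unadjusted p of 0.116.

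Across the 60 regions, 4 were called in a comparison of a time with sham, and 0 were gained or lost in the 10 min or the 1 h group. By time 0, 0, 1, 3 and 1 of the 60 were called. The shares of all merged regions called were 0.840% (10 min), 0.777% (1 h), 0.907% (6 h), 0.917% (24 h) and 1.12% (72 h). The share of all regions called in at least 1 of these comparisons was not counted. Over all merged regions 0.216% were gained and 0.624% lost in the 10 min group, and 0.225% and 0.553% in the 1 h group. No member region was gained in the 6 h or the 72 h group, where 0.201% and 0.719% of all merged regions were. With an equal number of peaks per library gains and losses were closer, with 0.286% of all merged regions gained against 0.313% lost (10 min), 0.257% against 0.267% (1 h), 0.271% against 0.307% (6 h) and 0.336% against 0.332% (72 h). Of the 60 member regions that of Dnmt3l was then the 1 called, as lost in the 6 h and the 72 h group. With a score of at least 100 required, none of these 4 regions was called, and no region of the 4 reached that score in more than 1 library. No member region met the rule for all 15 MI libraries against sham, where 0.0375% of all regions were gained and 0.252% lost. Of the 33 member regions with a peak in 3 to 15 libraries, 3 had an exact p under 0.05 before adjustment (9.09%, against 2.14% of 72974 regions), those of Dnmt3b, Tet2 and Mbd2 given above. None passed after adjustment, nor did any region of the genome (0%); the smallest p that this design allows is 0.000411.

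**Figure D4:**
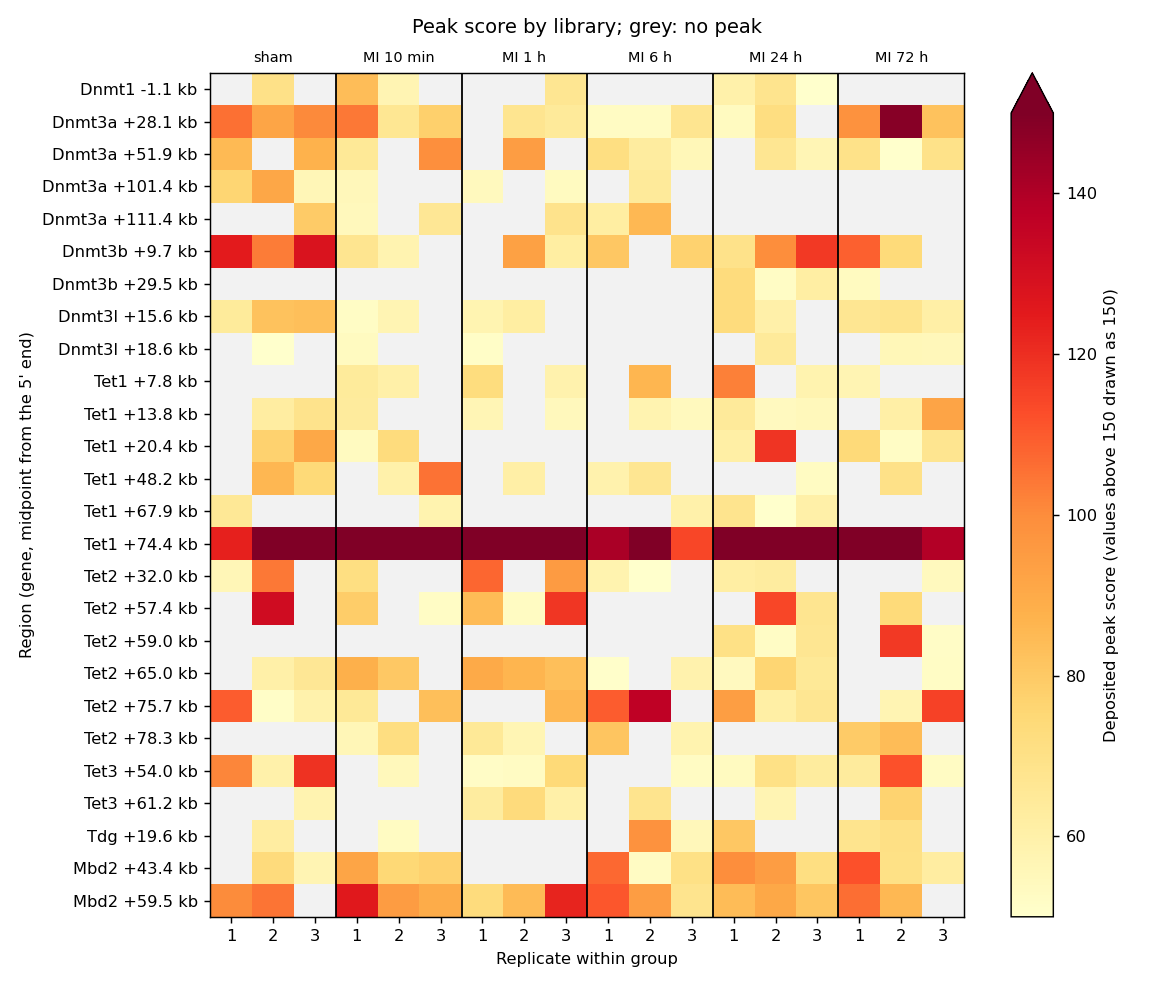
Deposited peak score (colour; values above 150 drawn as 150) in each of the 18 libraries, 3 replicates per group, for the member regions found in at least 6 libraries or called gained or lost; rows give the gene and the distance of the region from its 5′ end in kb, and grey means no peak. The Tet1 region at 74.4 kb fills its row, while the gained regions of Dnmt3b at 29.5 kb and Tet2 at 59.0 kb show peaks only at 24 h and 72 h.

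The joint span of the 10 genes measured 626 kb. In sham 2.46%, 4.02% and 3.05% of it lay under peaks, and in the 15 MI libraries 2.08% to 3.82%, so the groups overlapped. Over all protein-coding genes the range was 1.76% to 2.83%, and each of the 18 libraries had a higher percentage over the 10 genes than over all genes. With an equal number of peaks 15 of 18 did, and with scores of at least 100, 12 of 18. Restricted to peaks with a score of at least 100, the sham libraries had 1.01%, 1.17% and 0.934%, and the MI libraries 0.271% to 0.776%. The groups then did not overlap for the 10 genes. With an equal number of peaks per library they did, at 1.91% to 2.82% in sham and 1.97% to 3.29% at 10 min. Of the MI groups only that of 72 h, at 1.42% to 1.68%, then lay below all of sham. Over all protein-coding genes the 72 h libraries then had 1.45% to 1.67% and sham 1.47% to 1.70%, which overlap. For all protein-coding genes, at scores of at least 100, sham had 0.423% to 0.746% and the 72 h libraries 0.471% to 0.729%. The all-gene means were 0.545% in sham, 0.394% to 0.431% in the groups from 10 min to 24 h and 0.626% at 72 h. How often other sets of genes separate at scores of at least 100, or at 72 h with an equal number of peaks, was not counted. No test is given for this score over the 10 genes, since the list was chosen with results known. The peaks behind it were 6, 5 and 4 per sham library and 1 to 4 per MI library. Of all 51, Tet1 held 21, Tet2 10, Mbd2 8, Dnmt3b 5, Dnmt3a 4 and Tet3 3, and Dnmt1, Uhrf1, Dnmt3l and Tdg held none.

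**Figure D5:**
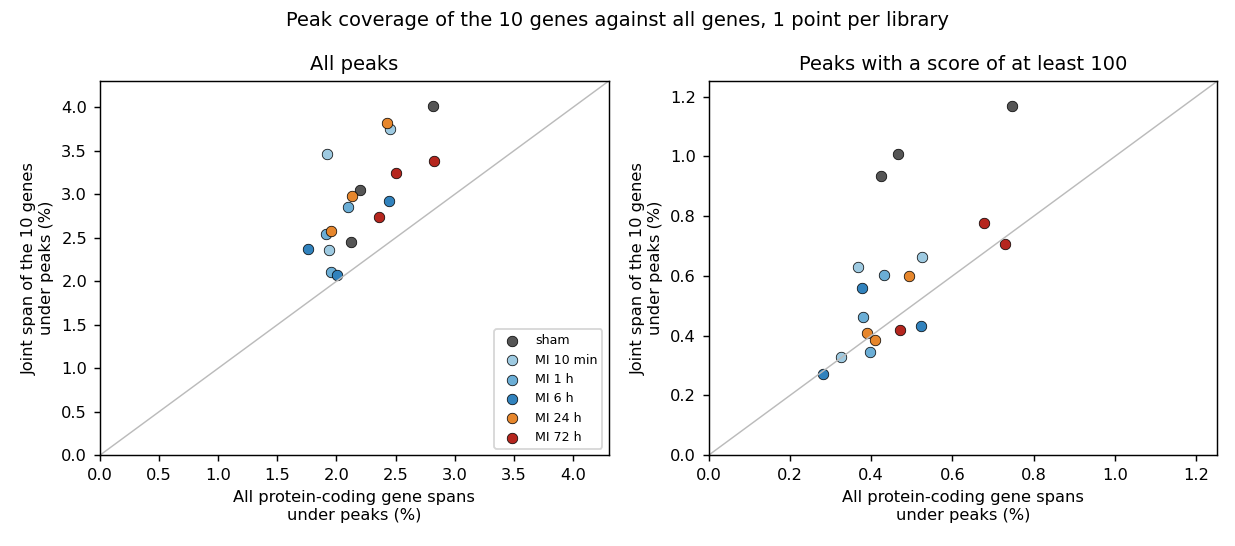
Percentage of the joint span of the 10 genes under peaks against the same over all protein-coding genes, 1 point per library, coloured by group; left, all peaks, right, peaks with a score of at least 100; the line marks equal values. On the right the 3 sham libraries lie at 0.934% to 1.17%, above the highest MI library at 0.776%.

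For the 3 genes with the highest mean coverage, the protein-coding genes whose coverage over the 18 libraries was most like theirs were sought among 14578 genes. Tet1 was most like Ccl25 (Pearson r 0.765) and Cd38 (0.748), Dnmt3l most like Wdr46 (0.750) and Podn (0.748), and Tet2 most like Grid1 (0.769) and Plekha3 (0.751). These are the highest of many correlations over 18 libraries, both genes of a pair being read from the same lists, which differ in length, and they carry no test.

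Another 44 genes of DNA methylation, its removal and its reading were taken as a wider list, all 44 found in the gene table. Peaks were present in 34 of them, 7 had a peak in all 18 libraries, and 10 had none. The highest mean coverage was that of Cxxc1, which encodes a protein binding unmethylated CpGs, with 30.1% ± 5.54 (n = 18), followed by Mbd3 with 9.88% ± 5.92 and the glycine methyltransferase Gnmt with 7.65% ± 9.95. Of the 32 that could be tested in limma, 0 passed over the 6 groups, in any comparison with sham or, of 30, in the slope over time. At an unadjusted p under 0.05 there were 4 over the 6 groups (12.5%, against 6.5% of all genes), 4 of 30 for the slope (13.3%, against 8.93%) and 0 to 3 in the comparisons of a time with sham (0% to 9.38%, against 4.93% to 6.85%). The median of the mean coverage was 1.80% over the 44 genes and 2.94% over the 10.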

How the data were processed

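MeDIP-seq was done on heart tissue of 18 mice, and peaks were called on each library separately. Alignment with Bowtie2, peak calling with MACS2 and the build mm10 are named in the submitters' processing notes, without versions; their options and any input library are not given in the sources used here. The deposited lists give chromosome, start, end, name and a score for each peak, the authors' own value, whose scale is not stated and whose lowest value is 50 in each list. No counts were used, so depth is unknown and no counting interval can be given.

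Here, peaks sharing at least 1 base were joined into merged regions, and the percentage of each gene span (gene plus 2000 bases each side) under peaks was computed per library with Python 3.11.15 (pandas 2.3.3, numpy 2.4.6, scipy 1.17.1). Genes with a peak in at least 3 libraries were tested with limma 3.58.1 (R 4.3.3) over the 6 groups, against sham and along log10 hours, with Benjamini-Hochberg adjustment over all genes tested. Presence of a peak was tested by exact enumeration of the group labels, two-sided by construction; 3 against 3 libraries cannot give an exact p below 0.1, so gained and lost regions follow a rule (3 of 3 against 0 of 3) read against its share over all regions. For all MI libraries, a gained region needs a peak in 12 or more of the 15 MI libraries and in none from sham, and a lost one in 3 or fewer of the 15 and in each from sham. The scripts were tested on simulated data. Each mouse is 1 replicate per the labels.

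Coordinates of the lists were set on GRCm38.p6 genes: 8.93% of promoter windows touched a region, against 12.3% and 12.5% with the windows moved by 20000 bases. Alternatives were log2(percentage + 0.5), other flanks (0 or 5000 bases), genes with a peak in at least 1 library, division by the percentage over all genes, a mean-variance trend, a replicate block, peaks of a score of at least 100, 34255 peaks per library, at least 50% of a region covered, and leaving out each library.

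The 10 genes and all lists were chosen with earlier results of these data known. All 10 genes are named; their regions are named where at least 6 libraries have a peak, where called gained or lost, or where a region holds the highest score of its gene. For the 3 genes with the highest coverage the 2 most alike genes are named, and of the 44 further genes those past a test or else the 3 with the highest coverage. Another gene of that list is not reported here and enters none of its counts.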

Additional observations from a re-analysis of the deposited data

Results flagged for a closer look

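Tet1 coverage was above the sham mean of 4.54% in all 3 mice at 10 min (mean 6.25%) and below it in all 3 mice at 1 h (mean 4.26%), a difference between these times of 1.998 percentage points. It was likewise above the sham mean in all 3 mice at 24 h (mean 6.27%), 2.01 points over 1 h. These entries are listed because all mice of 1 time lay across the sham mean from all mice of the other. The difference itself was not tested, and how many of all genes show such a pattern was not counted. With an equal number of peaks per library the sham mean was 4.14%. The lowest mouse was then at 3.64% at 10 min and at 2.98% at 24 h, both under that mean. The highest mouse at 1 h was at 4.19%, over it, so the pattern did not hold there. Sham replicate 1, at 2.57%, sets the sham mean below the other 2 sham values of 5.20% and 5.84%, and without it the difference of all MI libraries from sham was -0.248 points in place of 0.738.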

How the results depend on the processing

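None of the 10 genes passed an adjusted p of 0.05 in limma under any alternative run, and no gene or region passed the exact test of presence. With scores of at least 100 only 6 of the 10 could be tested in limma (3 for the slope), and with equal numbers of peaks 9. The number of all genes called moved. Over the 6 groups it went from 31 to 48 on the log2 scale, 18 with scores of at least 100 and 14 with equal numbers of peaks. Equal numbers gave 2 genes at 1 h (7 before), 2 at 6 h (6), 2 at 24 h (7), 6 at 72 h (15), 3 for all MI libraries (8) and 1 for the slope (0). Without a flank there were 3 at 10 min (6 before), 3 at 1 h, 3 at 6 h and 17 for all MI libraries; with 5000 bases, 3 at 24 h and 4 for all MI. Division by the all-gene percentage gave 4 at 1 h, the mean-variance trend 11 at 24 h, and scores of at least 100 gave 16 for all MI. With the replicate number as a block there were 3 at 10 min, 4 at 1 h and 5 for all MI. The numbers share no source in the labels: deviations of same-numbered libraries correlated at a mean r of 0.00358 (45 pairs), and 6 of 18 libraries correlated best with their own number.

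Leaving out 1 library gave 21 to 37 genes over 6 groups, 0 to 10 at 10 min, 1 to 10 at 1 h, 0 to 11 at 6 h, 3 to 13 at 24 h, 12 to 20 at 72 h, 0 to 14 for all MI and 0 to 2 for the slope. All MI libraries gave 0 genes without sham replicate 2 and 14 without 72 h replicate 1.

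Member regions gained or lost, with scores of at least 100, numbered 1 at 10 min, 1 at 1 h, 0 at 24 h (3 before), 0 at 72 h (1) and 1 for all MI (0). In the same order 0.196%, 0.168%, 0.184%, 0.191% and 0.0782% of all merged regions were then called. With equal numbers of peaks the member regions called numbered 0 at 24 h and 1 for all MI, the Dnmt3l region. The shares of all merged regions called were 0.653% and 0.175%. Leaving out 1 library of a comparison loosens the rule to 2 libraries in that group. It gave 0 to 2 member regions at 10 min, 1 to 5 at 1 h and 1 to 5 at 6 h. Later it gave 4 to 7 at 24 h and 1 to 4 at 72 h, and 0 to 4 for all MI. The 7 came without sham replicate 3. The shares of all merged regions called rose as well, to 1.89% to 2.53% (10 min), 1.86% to 2.41% (1 h) and 2.01% to 2.85% (6 h). They were 2.14% to 2.44% at 24 h, 2.33% to 3.09% at 72 h and 0.292% to 1.54% for all MI.

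The difference of all MI libraries from sham changed sign for Dnmt3b (-1.53 points) and Tet2 (-0.815) with scores of at least 100, for Tet1 (-0.0660), Tdg (1.078) and Mbd2 (0.368) with equal numbers of peaks, and when 1 library was left out for Dnmt3l, Tdg and Mbd2 (sham replicate 2) and Tet1 (sham replicate 1); the cause was not tested. Over all libraries left out in turn the ranges were -1.51 to 0.202 (Dnmt3l), -0.248 to 1.39 (Tet1), -3.20 to 1.24 (Tdg) and -2.12 to 0.376 (Mbd2). Tet3 stayed negative in 28 of 28 settings, which reuse the same libraries, with an adjusted p in limma of 0.477 to 0.999. Depth is unknown here, so no limit of detection can be given.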
